A study of Mus musculus with 12 samples.

Results

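The core machinery of autophagy and its cargo receptors were followed across 4 groups of mouse entorhinal cortex (EC) neurons in culture. The set was defined by gene symbol. Every gene whose symbol begins with Atg and a digit was taken, which gave 18 genes. A further 25 genes were listed by symbol, 43 in all out of 24100 genes in the table. The listed members were chosen with earlier results of these data known. Primary cultures were prepared from the EC of mouse embryos at embryonic day 17, and an adeno-associated virus (AAV) was added at 7 days in vitro in fresh medium, at 1e+10 genomes per ml. RNA was collected 4 days later, and each group held 3 libraries. The embryos were C57Bl/6J by the study's methods. Silenced neurons carried AAV1-mCherry-U6-mDEK-shRNA, a hairpin against Dek, which encodes a chromatin-binding protein, and their controls carried AAV1-mCherry-U6-scrmb-shRNA, a scrambled hairpin. Overexpressing neurons carried AAV1-hSyn1-mDEK-IRES-mCherry, which holds the mouse Dek cDNA, and their controls carried the empty vector AAV1-hSyn1-mCherry-WPRE. All 4 groups thus received virus and mCherry. The hairpin was a single sequence expressed from U6, a promoter active in any transduced cell type, while the cDNA was driven by the neuronal promoter hSyn1. The libraries are described as wells, and nothing says whether wells came from separate dissections, so that p-values measure the spread between these wells only, which may be technical.

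Macroautophagy encloses cytoplasm in a double membrane, the autophagosome, which then fuses with the lysosome. A kinase complex around ULK1 starts the process, a lipid kinase complex around Beclin 1 marks the membrane with phosphatidylinositol 3-phosphate (PI3P), ATG9 vesicles and ATG2 proteins supply lipid, and a conjugation system of ubiquitin-like proteins acts on the growing membrane. Receptors such as p62 link ubiquitinated cargo to the forming autophagosome, and SNARE proteins such as syntaxin 17 carry out fusion. Neurons form many autophagosomes in the axon and transport them towards the cell body, and autophagy is one of the routes by which tau is degraded.

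Levels are given as CPM, estimated counts divided by the scaled library total in units of 1e+06,, and changes as log2 fold changes (log2FC) ± SE from edgeR's quasi-likelihood test with Benjamini-Hochberg adjustment over all genes tested. A gene was called at an adjusted p below 0.05. Library totals lay between 15679567 and 18933382 estimated counts. Dek itself was at 6.65 to 8.62 CPM in silenced wells, 35.2 to 36.6 CPM with the scrambled hairpin, 129 to 156 CPM with the cDNA and 36.0 to 41.1 CPM with the empty vector, so that every library matched its label. In bulk RNA of this kind, fewer cells of a type and less RNA per cell cannot be told apart. Markers of other cells moved with the groups. The summed CPM of 5 oligodendrocyte markers was 82.4 to 89.8 in silenced wells, 30.8 to 41.2 with the scrambled hairpin, 41.8 to 53.4 with the cDNA and 44.6 to 45.6 with the empty vector, and 4 of the 5 rose after silencing while Mog fell. The sum of 5 precursor markers was 92.5 to 199 after silencing and 62.3 to 110 with the scrambled hairpin, with 3 of the 5 higher. None of 8 astrocyte markers was called between these groups (sums of 489 to 834 and 519 to 800.4 CPM). Against the empty vector (sums of 424 to 550 CPM), 2 of the 8 were called higher in silenced wells and 2 in scrambled wells. The median log2FC of the 8 was 0.73 and 0.63 in these comparisons. Of 7 microglial markers, 6 were below 1 CPM in every group and Aif1 fell (sums of 3.54 to 4.47 and 4.83 to 6.99 CPM), and of 5 endothelial and mural markers 3 were below 1 CPM and Rgs5 rose (sums of 9.54 to 10.2 and 3.55 to 4.54 CPM). No marker of these lists had a mean of 0 in all groups at once. Of 9 neuronal markers, 6 fell and 1 rose after silencing (sums of 5905.5 to 6472 and 7039 to 7220.3 CPM). The part of these shifts in the results below was not tested.

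Dek silencing moved the autophagy genes in both directions. Against the scrambled hairpin, 14 of the 43 genes fell, 11 rose and 18 did not pass the test, which is 58.1% called beside 54.7% of the 14232 genes tested. The shares in each direction, 32.6% lower and 25.6% higher, stood beside 28.5% and 26.2% of all genes. The median log2FC was 0.01 for the 43 genes and 0.00 for all genes. The set as a whole was near the background. The lower genes included 4 of 5 receptors and both ATG9 scramblases. The higher genes included Ulk1, Stx17 and 6 of the 11 conjugation genes. A change of more than 1 log2 unit was seen in 2 of the 43, Optn and Stx17, beside 10.5% of all genes. With library-size scaling in place of TMM, the median of all genes moved by 0.10 and the split became 19 higher and 12 lower, beside 4793 higher and 3210 lower among all genes (3730 and 4060 with TMM), so that small changes are best read relative to that shift.

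**Figure D1:**
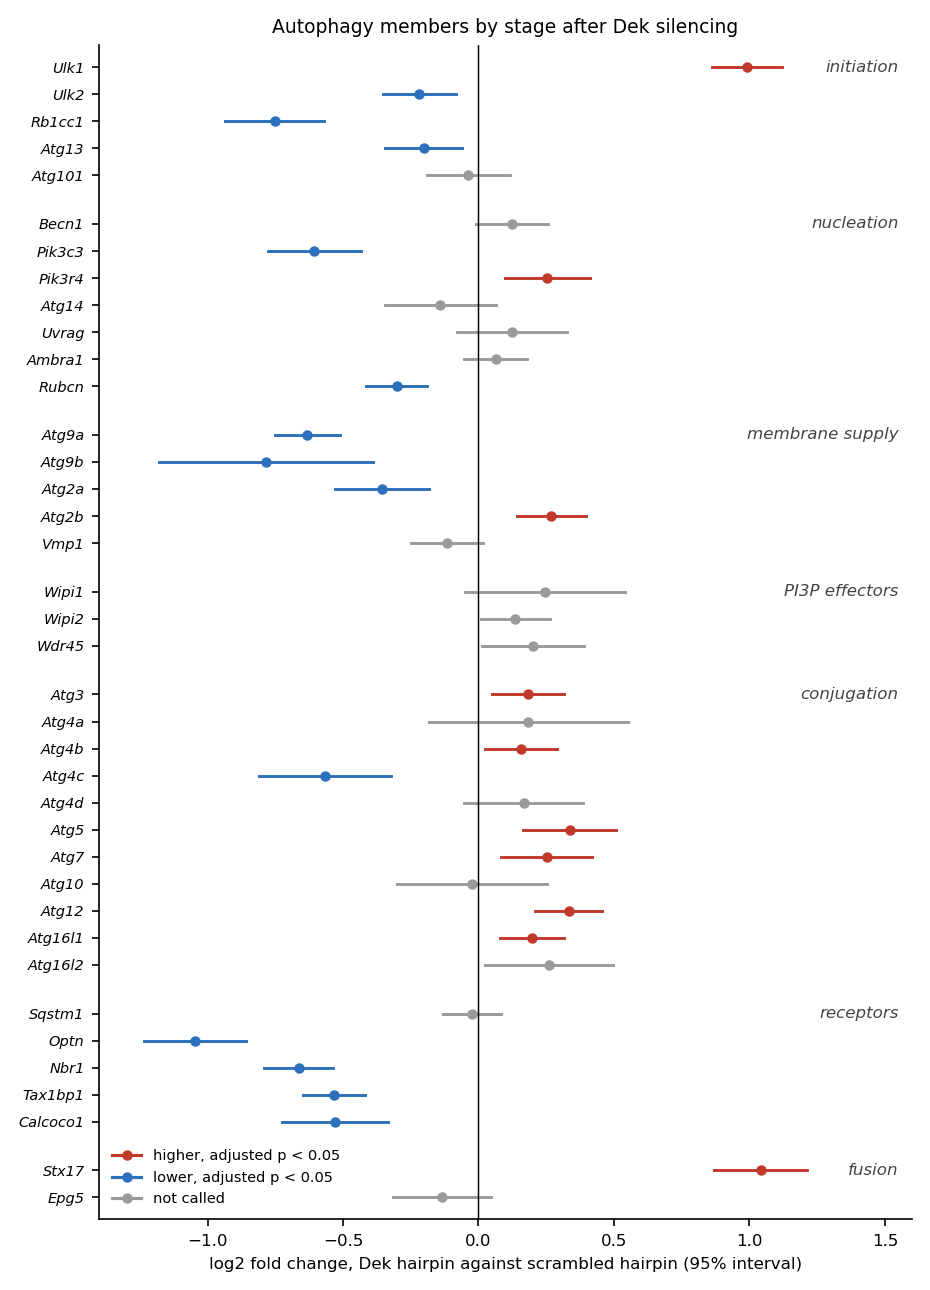
The log2 fold change (horizontal axis) of 38 of the 43 autophagy genes, Dek hairpin against scrambled hairpin with 3 libraries each, ordered by stage from initiation to fusion. Points are estimates, lines are 95% intervals, and colours mark genes called higher (10), lower (13) or not called (15). Ulk1 and Stx17 lie furthest to the right, and Optn furthest to the left.

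At initiation, 3 of 5 genes fell and 1 rose, beside 28.5% of all genes lower and 26.2% higher. Ulk1, the kinase that starts the process, was at 199.5, 208 and 185 CPM in silenced wells and at 94.9, 100.4 and 99.7 CPM with the scrambled hairpin. The groups did not overlap, and Ulk1 was 1.99-fold higher in silenced neurons (log2FC 0.99 ± 0.06, adjusted p = 7.11e-08). Rb1cc1, which encodes the scaffold FIP200 that holds the ULK1 complex together, went the other way. Its level was 44.6, 41.2 and 34.8 CPM after silencing against 65.8, 66.4 and 68.7 CPM in scrambled wells (log2FC -0.75 ± 0.08, adjusted p = 1.17e-05). The paralogous kinase Ulk2 fell slightly (log2FC -0.22 ± 0.06), but its call was lost with library-size scaling and with a correction for GC content and length (log2FC -0.09). Atg13, the adaptor between kinase and scaffold, also fell slightly (log2FC -0.20 ± 0.06), and lost its call with library-size scaling and without silencing replicate 2 or 3 or scrambled replicate 1 or 2. Atg101, the partner of ATG13, stood at 46.9 ± 1.97 and 47.7 ± 2.49 CPM (SD, n = 3), with a 95% interval of the log2FC from -0.19 to 0.12. With the GC and length correction it was called lower, by a log2FC of -0.19.

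Of the 7 genes of the Beclin 1 complexes, 2 fell, 1 rose and 4 were not called. The shares, 28.6% lower and 14.3% higher, stood beside 28.5% and 26.2% of all genes. Pik3c3, the catalytic lipid kinase VPS34, was at 23.0, 23.0 and 22.9 CPM in silenced wells and at 33.9, 32.8 and 37.2 CPM in scrambled wells, without overlap (log2FC -0.61 ± 0.08, adjusted p = 4.38e-05). Its regulatory subunit Pik3r4 rose (log2FC 0.25 ± 0.07, adjusted p = 0.00992). Rubcn, an inhibitor of the late complex, fell from 133 ± 4.37 to 109 ± 0.859 CPM (log2FC -0.30 ± 0.05, adjusted p = 0.000389). The other four, Becn1, Atg14, Uvrag and Ambra1, had log2FC between -0.14 and 0.12. For Becn1 the 95% interval ran from -0.01 to 0.26, and it was called higher with library-size scaling, with a filter of at least 5 CPM, with the GC and length correction and in a fit of all 12 libraries.

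Of the genes that bring membrane to the forming autophagosome, 3 of 5 fell and 1 rose, beside 28.5% and 26.2% of all genes. Atg9a, the lipid scramblase carried by ATG9 vesicles, was at 94.3, 100.1 and 100.1 CPM after silencing and at 146, 153 and 152 CPM in scrambled wells (log2FC -0.63 ± 0.05, adjusted p = 1.62e-06). Its paralogue Atg9b was scarce, at 3.96, 3.76 and 2.71 CPM against 5.56, 5.66 and 6.51 CPM, and fell as well (log2FC -0.78 ± 0.18, adjusted p = 0.00304). Neither gene's groups overlapped. The lipid transfer proteins split: Atg2a fell (log2FC -0.36 ± 0.08) and Atg2b rose (log2FC 0.27 ± 0.06). Vmp1, a scramblase of the endoplasmic reticulum, had a log2FC of -0.12 ± 0.06 and was not called, except without silencing replicate 1. The 3 PI3P effectors Wipi1, Wipi2 and Wdr45, which bind the marked membrane, had log2FC of 0.24, 0.14 and 0.20, and none was called. Wipi1 passed with library-size scaling. Wipi2 and Wdr45 were near the threshold (adjusted p = 0.0664 and 0.0657) and passed it with library-size scaling, with the filter of at least 5 CPM, with the replicate block and in the fit of all 12 libraries.

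Of the 11 genes of the conjugation system, 6 rose by small amounts, 1 fell and 4 were not called, beside 26.2% of all genes higher. Atg7, the E1-like enzyme of the system, had a log2FC of 0.25 ± 0.08 and Atg3, an E2-like enzyme, one of 0.18 ± 0.06. The 3 components of the complex that acts as E3 followed: Atg12 rose from 168 ± 3.18 to 213 ± 13.3 CPM (log2FC 0.33 ± 0.06, adjusted p = 0.00033), Atg5 from 28.5 ± 2.15 to 36.3 ± 0.323 CPM (log2FC 0.34 ± 0.08, adjusted p = 0.00315) and Atg16l1 from 84.5 ± 2.87 to 97.9 ± 2.02 CPM (log2FC 0.20 ± 0.05, adjusted p = 0.00891). The calls of Atg5 and Atg12 were kept under every alternative tried. Those of Atg3, Atg7 and Atg16l1 were lost without single libraries (Atg3 without silencing replicate 3 or scrambled replicate 2 or 3, Atg7 without silencing replicate 2 or 3 or scrambled replicate 3, Atg16l1 without scrambled replicate 2). Among the ATG4 cysteine proteases, Atg4b rose by a log2FC of 0.16 ± 0.06 (adjusted p = 0.0472), a call that 8 of 15 alternatives lost, including silencing replicate 1 or 2 or any scrambled replicate left out. Atg4c went down, from 17.3, 18.3 and 17.3 CPM in scrambled wells to 13.2, 12.7 and 10.2 CPM (log2FC -0.57 ± 0.11, adjusted p = 0.00106). The remaining genes, Atg4a, Atg4d, Atg10 (the E2-like enzyme for ATG12) and Atg16l2, had log2FC from -0.02 to 0.26 and were not called. Atg16l2 passed under 7 of the 15 alternatives.

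The promoters of the conjugation genes were examined for CACGTG, the core of the E-box bound by many basic helix-loop-helix factors, TFEB among them, because 6 of these 11 genes were called higher. RefSeq windows of 300 bases around a transcript start (GRCm38.p6) were matched for 36 of the 43 genes. CACGTG, which reads the same on both strands, lay in 5 of the 36 (13.9%), namely Atg14, Rubcn, Atg3, Atg5 and Atg7, beside 11.5% of 11294 tested genes with a window. The longer TCACGTGA, which contains it, lay in 1, Atg3, beside 2.09% of those genes. Of the 5, Atg3, Atg5 and Atg7 rose, Rubcn fell and Atg14 was not called. The windows of Atg7 and Rubcn lie at transcript starts inside the gene, away from its outermost RefSeq start. The windows of Atg3 and Atg5 are shown as examples, with CACGTG in capitals, picked because both hold it near the start of a gene that rose. The Atg14 window also holds it near the start of its gene, which was not called. The higher genes Atg4b, Atg12 and Atg16l1 were not among the 5. A match is a sequence of letters and does not show that a factor binds.
Atg3 (chr16:45158579-45158878, plus strand): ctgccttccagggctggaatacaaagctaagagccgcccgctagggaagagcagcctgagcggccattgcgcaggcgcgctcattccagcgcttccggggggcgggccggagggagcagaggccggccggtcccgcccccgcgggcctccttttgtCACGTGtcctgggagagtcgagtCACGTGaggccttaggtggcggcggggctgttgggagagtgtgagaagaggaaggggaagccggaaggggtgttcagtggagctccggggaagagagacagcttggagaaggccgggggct
Atg5 (chr10:44268089-44268388, plus strand): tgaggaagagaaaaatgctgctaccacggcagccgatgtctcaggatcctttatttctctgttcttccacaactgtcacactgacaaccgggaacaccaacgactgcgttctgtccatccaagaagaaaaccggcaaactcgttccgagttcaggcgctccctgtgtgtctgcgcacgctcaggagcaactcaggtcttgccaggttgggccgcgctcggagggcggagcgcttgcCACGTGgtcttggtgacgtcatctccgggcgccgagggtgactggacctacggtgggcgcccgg

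Of the 5 receptors, 4 fell, beside 28.5% of all genes lower. Optn (chr2:5020521-5064399), which encodes optineurin, a ubiquitin receptor for damaged mitochondria and aggregates, was at 22.0, 18.9 and 19.0 CPM in silenced wells and at 43.7, 39.6 and 38.96 CPM in scrambled wells. With the cDNA it was at 32.5, 31.9 and 34.1 CPM, and with the empty vector at 32.8, 32.5 and 33.9 CPM. The silenced wells were the lowest and the scrambled wells the highest of the 12, and Optn was 2.07-fold lower after silencing (log2FC -1.05 ± 0.09, adjusted p = 1.04e-06). Nbr1, a ubiquitin receptor related to p62, was at 90.2, 82.6 and 92.4 CPM against 140.1, 141 and 135 CPM (log2FC -0.66 ± 0.06, adjusted p = 1.86e-06). Tax1bp1, a receptor for ubiquitinated aggregates, was at 133, 132 and 129 CPM against 196, 182 and 187 CPM (log2FC -0.53 ± 0.05, adjusted p = 4.19e-06). Calcoco1, a receptor for the endoplasmic reticulum and Golgi, was at 29.1, 33.5 and 32.2 CPM against 40.5, 48.8 and 46.4 CPM (log2FC -0.53 ± 0.09, adjusted p = 0.000344). In each of these the silenced wells lay below all scrambled wells, and each call was kept under every alternative tried. Sqstm1, which encodes p62, differed from them. It was at 464, 485 and 479.96 CPM against 499.9, 462 and 476 CPM, overlapping, and its log2FC was -0.02 with a 95% interval from -0.13 to 0.08. With the GC and length correction Sqstm1 was called lower, by a log2FC of -0.12.

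**Figure D2:**
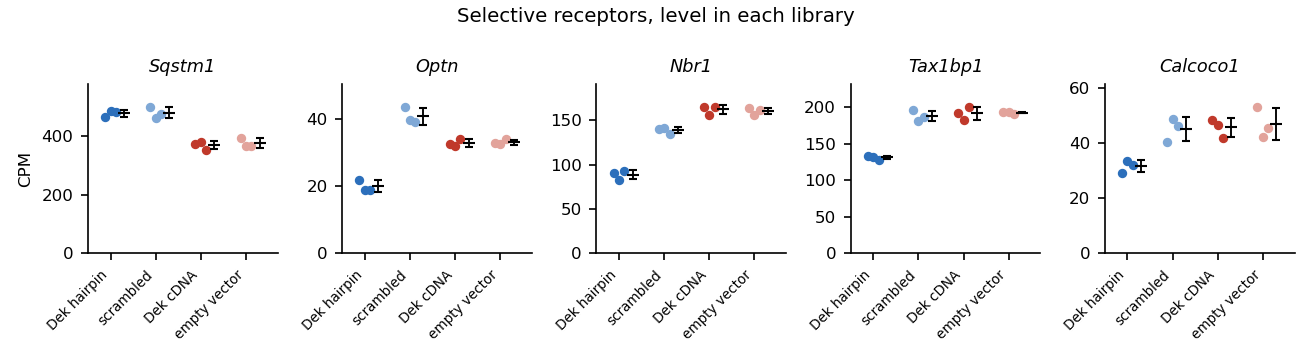
Level in CPM (vertical axes, from 0) of the 5 receptors in each of the 12 libraries, with the mean and SD of each group beside the points. Optn, Nbr1, Tax1bp1 and Calcoco1 are lowest in the Dek hairpin wells, and Sqstm1 is at the same level in both hairpin groups and lower in the other groups.

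Optn and other members, some that fell and some that did not, share 7 bases with Dek itself. AAGAGGA is part of the Dek stretch that the hairpin was designed against, and was singled out after the values of these data had been seen. It lay in an annotated 3' untranslated region (UTR) of 2344 of 13437 tested genes (17.4%), of which 43.2% fell and 17.8% rose after silencing, against 26.3% and 28.1% of the genes without it. Among the autophagy genes 12 carried it (27.9%), and 6 of these fell (Rb1cc1, Atg13, Pik3c3, Atg9a, Optn and Calcoco1), 1 rose (Atg12) and 5 were not called (Atg4a, Atg4d, Atg16l2 and Sqstm1 among them). Of the 31 without it, 8 fell and 10 rose. These shares, 50.0% and 25.8% lower, stood beside 43.2% and 26.3% of all genes. In scrambled against empty vector wells no hairpin was directed at Dek. There 31.2% of all genes with the letters and 20.6% of those without were lower. Of the 12 autophagy genes with them 1 was lower and 5 were higher, Atg13 and Optn among the 5. The scrambled wells enter both comparisons, on opposite sides, so the 2 counts are not independent. In silenced against empty vector wells Atg13 was not called (log2FC 0.04 ± 0.07). A site of 29 bases from the longest coding transcript (GENCODE annotation of GRCm38) is shown for 4 genes that fell and for Sqstm1, which did not, with AAGAGGA in capitals. The Sqstm1 site, like that of Atg4d (not shown), lies past the 3' end of the gene as RefSeq annotates it. Nbr1, Tax1bp1 and Atg9b fell without it. Genes with and without the letters were not matched for UTR length. The role of these letters in the changes was not tested.
Optn (chr2:5021178-5021206, minus strand): aggaagtcacaAAGAGGAatctaattagc
Rb1cc1 (chr1:6274726-6274754, plus strand): caaactatttaAAGAGGAgtgttattgca
Atg9a (chr1:75181072-75181100, minus strand): cctcacttaccAAGAGGAgaatggaggga
Calcoco1 (chr15:102708238-102708266, minus strand): cctctgggaggAAGAGGAtggagactgag
Sqstm1 (chr11:50200106-50200134, minus strand): agtgtagcagcAAGAGGActctgttgaca

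At fusion, Stx17 (chr4:48124906-48186507), the SNARE recruited to closed autophagosomes, was at 77.3, 74.2 and 63.5 CPM in silenced wells and at 33.4, 35.5 and 34.3 CPM in scrambled wells. With the cDNA it was at 42.7, 37.2 and 43.8 CPM, and with the empty vector at 38.1, 36.7 and 35.4 CPM. All 3 silenced wells were above the other 9, and Stx17 was 2.06-fold higher than with the scrambled hairpin (log2FC 1.04 ± 0.08, adjusted p = 5.13e-07). Epg5, a tether between autophagosome and lysosome, was at 42.1 ± 1.85 CPM against 45.7 ± 4.92 CPM and was not called (log2FC -0.13 ± 0.08).

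**Figure D3:**
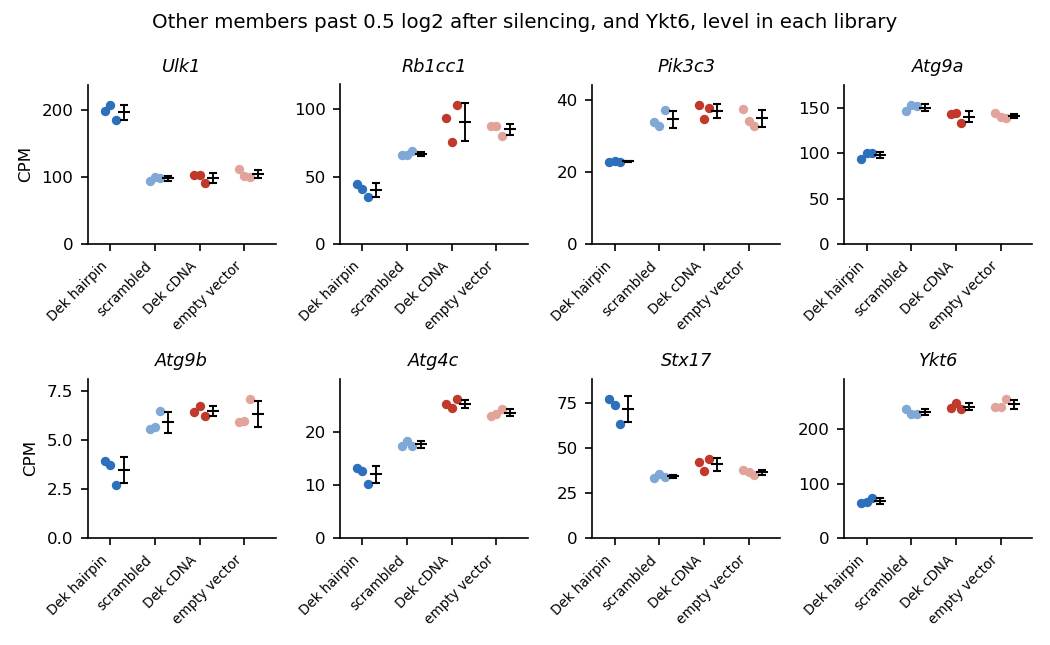
Level in CPM (vertical axes, from 0) in each of the 12 libraries of the 7 other members that changed by more than 0.5 log2 units after silencing, and of Ykt6, with the mean and SD of each group beside the points. Ulk1 and Stx17 are highest in the Dek hairpin wells and the other genes are lowest there. Rb1cc1 and Atg4c are also lower with the scrambled hairpin than with the empty vector.

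The scrambled hairpin wells themselves differed from the empty vector wells at these genes. Of the 43, 14 were higher and 6 lower with the scrambled hairpin, 46.5% beside 43.1% of the 14096 genes tested, with 32.6% higher beside 21.3% of all genes and 14.0% lower beside 21.8%. Sqstm1 was higher by 0.35 ± 0.04 (adjusted p = 3.59e-05), Wdr45 by 0.51 ± 0.09 and Optn by 0.30 ± 0.07. Atg4c was lower by a log2FC of -0.42 ± 0.08, Epg5 by -0.39 ± 0.07, Ulk2 by -0.36 ± 0.04, Rb1cc1 by -0.35 ± 0.05, Atg2b by -0.32 ± 0.06 and Nbr1 by -0.21 ± 0.04. With the GC and length correction the values of Rb1cc1, Atg2b, Epg5 and Nbr1 were 0.02, -0.11, -0.11 and -0.09 and none was called. The groups differ in promoter as well as in the hairpin. They are also labelled as controls of separate sets, silencing and overexpression. Whether these sets were cultured or sequenced together is not stated. Vector and set cannot be told apart.

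Against the empty vector, silencing called 37 of the 43 genes, 22 higher and 15 lower, or 86.0% beside 67.4% of the 14292 genes tested (51.2% higher beside 34% and 34.9% lower beside 33.5%). This comparison shares its silenced wells with the first, and the hairpin's backbone is not that of the empty vector. It also crosses the separately labelled silencing and overexpression sets. Among genes called against the scrambled hairpin, Atg13 (log2FC 0.04 ± 0.07), Atg2b (-0.04 ± 0.06) and Atg7 (0.13 ± 0.08) were not called against the empty vector. Against that control Ulk1 had a log2FC of 0.91 ± 0.06, Stx17 of 0.96 ± 0.08, Optn of -0.73 ± 0.08, Nbr1 of -0.86 ± 0.06 and Rb1cc1 of -1.08 ± 0.08. Sqstm1 (log2FC 0.35 ± 0.05), Wipi2 (0.43 ± 0.06) and Wdr45 (0.73 ± 0.09) were called higher here and not against the scrambled hairpin, and each was also called higher with the scrambled hairpin than with the empty vector. With the GC and length correction, Epg5 (-0.07) and Vmp1 (-0.07) were no longer called, Atg101 (-0.01) changed sign and was not called, and Atg2b (0.32) was called higher.

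**Figure D4:**
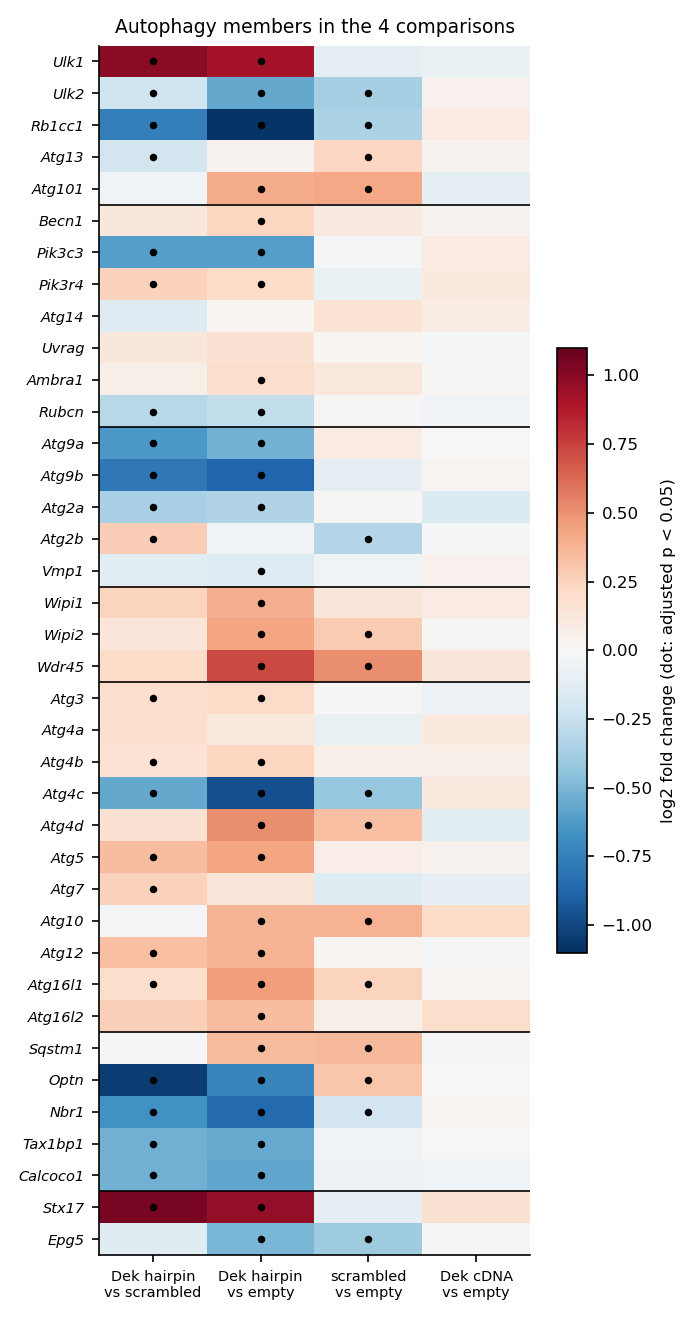
The log2 fold change of 38 of the 43 genes (rows, by stage) in 4 comparisons (columns), with red higher and blue lower in the first-named group and a dot where the adjusted p is below 0.05. The first 2 columns share the Dek hairpin wells, and the empty vector wells enter the last 3 columns. The last column holds no dot.

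Overexpression of Dek changed none of these genes detectably. Of the 43, 0 were called with edgeR, beside 1 of 14089 genes (0.0071%), which was Dek. With the DESeq2 Wald test 0 were called, beside 4 of 14089 genes. At an unadjusted p below 0.05 there was 1, Stx17 (log2FC 0.17 ± 0.08, adjusted p = 0.743), beside 6.6% of all genes. The log2FC of the 43 lay between -0.15 for Atg2a and 0.20 for Atg10, and all 43 of the 95% intervals lay within 0.5 log2 units of 0. Among genes that moved most after silencing, the interval of Optn ran from -0.16 to 0.14, that of Ulk1 from -0.22 to 0.07 and that of Rb1cc1 from -0.10 to 0.29. The interval of Stx17, from 0.003 to 0.34, lay just above 0.

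The response to silencing differed from the response to overexpression at 21 of the 43 genes when the difference itself was tested in a fit of all 12 libraries, 48.8% beside 43% of 14604 genes. The silencing response was the higher for 8 (18.6%, beside 20.4% of all genes) and the lower for 13 (30.2%, beside 22.7%). With library-size scaling the split was 12 higher and 10 lower. The difference was 1.09 ± 0.09 log2 units for Ulk1, 0.89 ± 0.11 for Stx17 and -1.02 ± 0.11 for Optn.

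Genes that control autophagy or act beside the core were read from 4 further lists. Of 20 other fusion genes, 7 fell and 3 rose after silencing, with a median log2FC of -0.02. Ykt6, a SNARE that acts in autophagosome fusion beside syntaxin 17, fell from 231 ± 5.76 to 68.5 ± 5.29 CPM (log2FC -1.77 ± 0.07, adjusted p = 3.02e-09), and Rab7, the GTPase of late endosomes and lysosomes, fell from 474 ± 2.47 to 310.3 ± 9.80 CPM (log2FC -0.63 ± 0.05). Tecpr1, a tether at the lysosome, had a log2FC of -0.35 ± 0.06. The HOPS tether subunit Vps11 (0.21 ± 0.06) and Gorasp2 (0.17 ± 0.06) rose. Of 23 other selective receptors tested, 9 fell and 6 rose, with a median of -0.11. Wdfy3, which encodes the aggregate adaptor ALFY, fell by a log2FC of -1.16 ± 0.06, and the reticulum receptors Fam134c (-0.92 ± 0.06) and Ccpg1 (-0.79 ± 0.07) fell with it. The mitochondrial receptor Bnip3 (0.50 ± 0.06), the ferritin receptor Ncoa4 (0.21 ± 0.05) and the reticulum receptor Tex264 (0.25 ± 0.06) rose.

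Of 19 other early factors, 8 fell and 4 rose, with a median of -0.09. Those named by the smallest adjusted p were Nrbp2 (-0.88 ± 0.06), Smcr8 (-0.82 ± 0.08), a partner of C9orf72, and Zfyve1 (-0.53 ± 0.07), which marks the omegasome, among the lower genes. Among the higher ones were Bcl2l1 (0.44 ± 0.05), whose protein BCL-XL binds Beclin 1, Wdr45b (0.31 ± 0.06), a PI3P effector, and Trp53inp1 (0.94 ± 0.19), a p53 target. Of 36 genes of mTORC1, AMPK and TFEB control, the nutrient and energy signals that act on ULK1, 10 fell and 10 rose, with a median of -0.07. The GTPase Rragd (0.94 ± 0.06) and the AMPK subunits Prkab1 (1.01 ± 0.09) and Prkaa2 (0.65 ± 0.06) rose. The mTORC1 inhibitor Tsc1 (-0.67 ± 0.06), the mTOR subunit Mlst8 (-0.46 ± 0.07) and Stk11 (-0.50 ± 0.07), which encodes the AMPK-activating kinase LKB1, fell. All 4 lists were called at 50.0% to 65.2%, beside 54.7% of all genes, and no gene of them was called in overexpression.

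**Figure D5:**
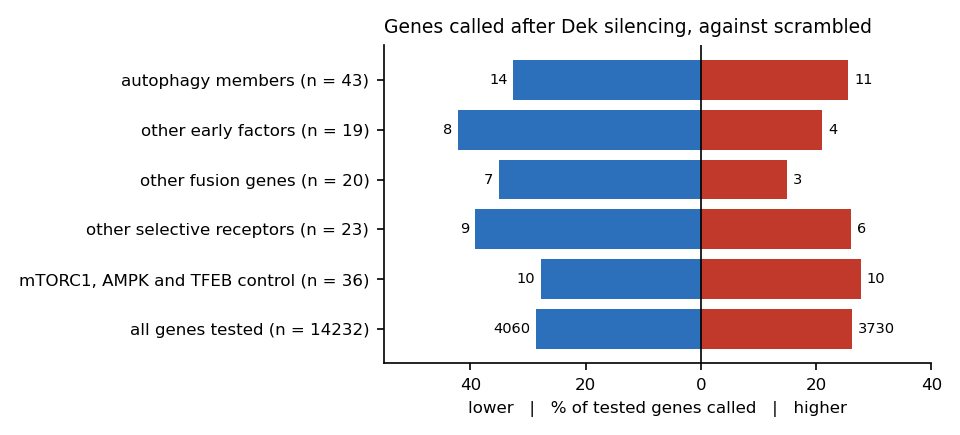
Share of tested genes called lower (bars to the left) and higher (bars to the right) with the Dek hairpin against the scrambled hairpin, for the 43 autophagy genes, the 4 further lists and all 14232 genes tested. Numbers beside the bars count genes. The autophagy bars (14 lower, 11 higher) are close in length to those of all genes.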

How the data were processed

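The authors deposited a single table of estimated counts per gene for 12 libraries. Per the labels and their processing notes, RNA was purified with in-column digestion (the library step also carries the word bacTRAP, while the molecule is given as total RNA), libraries were made from 200 ng of RNA with the Truseq RNA kit, and Salmon, DESeq2 and mm10 were used, without versions, while the study's methods describe alignment to mm10 with STAR and RPKM values, so that how these counts were made is not settled; whether counting used strand is not given in the sources used here, so overlapping and antisense genes cannot be told apart. The deposited estimated counts were not normalized, and 38.6% of values were not whole numbers. They were rounded. The 12 totals were 15679567 to 18933382, and no other per-sample column was left unused.

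Each pair of groups was fitted alone in edgeR (version 4.0.16, R 4.3.3): filterByExpr, TMM factors, then glmQLFit with robust estimation and glmQLFTest. P-values were adjusted by Benjamini-Hochberg over all genes tested, and a gene was called at an adjusted p below 0.05. The difference between responses was tested in 1 fit of all 12 libraries. The SE was taken as the size of the log2FC over the square root of F, and 95% intervals used its degrees of freedom. Scripts were tested on simulated data. CPM used TMM factors over all 12 libraries. Alternatives were DESeq2 1.42.0 (its size factors and its Wald test), limma-voom 3.58.1, library-size scaling, no filter, at least 5 CPM in 3 libraries, a replicate block, a GC content and length correction (mgcv 1.9.3), all 12 libraries in one fit, the other control, and each library left out. Tables and intervals were made with Python 3.11.15, pandas 2.3.3 and scipy 1.17.1, figures with matplotlib 3.10.9.

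The members and lists were chosen with earlier results of these data known. Per-library values are given for members called after silencing beyond 0.5 log2 units and for the receptors. The values of 5 members, counted in every total, are not reported here; the other 38 may be named. In the further lists, up to 3 genes per direction are named, those called after silencing with the smallest adjusted p at a mean of at least 5 CPM.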

Additional observations from a re-analysis of the deposited data

Results flagged for a closer look

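The difference between the silencing and the overexpression response (log2FC of the first minus that of the second, edgeR, all 12 libraries) passed an adjusted p of 0.05 at 21 of the 43 genes, beside 43% of all genes, and each of the 21 was also called in silencing and not in overexpression. Among them, the silencing response was the higher at Ulk1 (1.09), Stx17 (0.89), Atg12 (0.38), Atg7 (0.36), Atg5 (0.32), Atg2b (0.30) and Atg3 (0.27). It was the lower at Optn (-1.02), Rb1cc1 (-0.83), Atg9b (-0.80), Pik3c3 (-0.68), Nbr1 (-0.67), Atg4c (-0.65), Atg9a (-0.61), Tax1bp1 (-0.51), Calcoco1 (-0.48), Rubcn (-0.25), Ulk2 (-0.25) and Atg13 (-0.22). Of 20 alternative settings, the call at Atg13 (adjusted p = 0.0485) was lost under 14, DESeq2 and library-size scaling among them, at Ulk2 (0.033) under 10, the GC content and length correction (-0.11) among them, and at Atg3 under 7. Atg7 lost it without empty vector replicate 3 or overexpression replicate 3, Atg5 without scrambled replicate 3, and Rubcn with library-size scaling.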

How the results depend on the processing

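Of the 25 members called in silencing against scrambled, 19 (12 lower, 7 higher) kept direction and call under all 15 refits against that control, and no call changed sign. The number called was 21 to 25 with 1 library left out, 0 in overexpression under every setting, 32 to 35 in silencing against empty vector, 18 to 20 in scrambled against empty vector and 17 to 21 for the difference between responses. Counting only changes beyond 1 log2 unit left 2 genes in silencing against scrambled, 1 with the empty vector as control, 0 between the controls and 2 for the difference. With the GC content and length correction 13 were called in scrambled against empty vector, 10 of the 20 called without it and 3 others. With the empty vector as the control, Atg13 (log2FC 0.040) and Atg2b (-0.038) changed sign among the members called against scrambled. Some members not called against scrambled changed sign too. Atg101 went from -0.04 to 0.41, Atg10 from -0.02 to 0.37 and Sqstm1 from -0.02 to 0.35, and these were called higher against the empty vector. The cause was not tested. Same-numbered silenced and scrambled wells deviated together weakly (correlations 0.30, 0.13 and 0.07). Silenced well 1 was at -0.18 and -0.19 with scrambled wells 2 and 3, and silenced well 2 at 0.15 with scrambled well 3. Whether the numbers pair the wells is not settled. With the replicate block 28 members were called in silencing against scrambled, 34 in silencing against empty vector and 18 between the controls. The block gave 0 in overexpression and 21 for the difference. Among all genes, calls in silencing against scrambled went from 7790 to 8620 with the block, and calls between the controls from 6072 to 4897.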
